A study of Mus musculus with 3 samples.

Results

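The enzymes that make serine from a glycolytic intermediate, pass its carbon to folate and turn its backbone into cysteine were followed across 3 epithelial cell types of the inflamed mouse pancreas. The 8 genes were chosen by name for their place in this route: Phgdh, Psat1 and Psph of serine synthesis, Shmt1 and Shmt2 of serine and glycine exchange, Mthfd2 of the mitochondrial folate pathway, and Cbs and Cth of transsulfuration. Earlier results of these data were known when they were chosen. All 8 were on the array, among 21150 genes that could be named, with 13 probes in all (5 genes had 2 probes and 3 had 1). Acinar cells, duct cells and cells in acinar-to-ductal metaplasia (ADM), a shift of acinar cells towards a duct-like state, were laser-microdissected from frozen pancreas of 3 wild-type mice 48 h after pancreatitis was induced with caerulein, a cholecystokinin analogue. Each cell type had 1 one-colour Agilent array, for which 1.181 ng of RNA was amplified and 2.0 µg of cDNA labelled. With 1 array each, no difference between cell types has a replicate check and none was tested. All 3 arrays came from inflamed tissue, and uninflamed pancreas was not analysed here. Strain, age, sex, how the cells were recognised under the microscope and whether an array held 1 mouse or a pool are not given in the sources used here.

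Serine synthesis branches off glycolysis at 3-phosphoglycerate. Phgdh oxidises it, Psat1 transfers an amino group to it, and Psph removes the phosphate to give serine. Serine hydroxymethyltransferases then move a carbon from serine to tetrahydrofolate, leaving glycine, and Mthfd2 oxidises that carbon unit in mitochondria for use in nucleotide synthesis. Cbs joins serine to homocysteine to form cystathionine, and Cth splits cystathionine to release cysteine, a building block of glutathione. The exocrine pancreas has one of the highest rates of protein synthesis in the body, and several of these genes are known targets of the amino acid response factor ATF4.

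Phgdh, Psat1, Psph and Mthfd2 were lower on the duct array than on both others. Shmt2 had the clearest ADM-high pattern, on 1 probe that was dim in duct and acinar. Cbs was also lower in duct (−3.99 against acinar, beside −3.24 for Psph), but its sequence is not shown. Shown are the upstream sequences of Phgdh, Psat1, Psph, Mthfd2 and Shmt2. Each is the 250 bases before the RefSeq start site on build GRCm38.p6, 5′ to 3′ on the gene's strand, with the letters CCAAT, or ATTGG for the other strand, in capitals.
Phgdh, chr3:98339970-98340219, minus strand: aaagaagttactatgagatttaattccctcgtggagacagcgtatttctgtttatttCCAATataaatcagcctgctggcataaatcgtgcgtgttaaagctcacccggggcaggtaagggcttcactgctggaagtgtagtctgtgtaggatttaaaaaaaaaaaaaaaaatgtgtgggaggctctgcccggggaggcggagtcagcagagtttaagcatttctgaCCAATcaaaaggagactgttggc
Psat1, chr19:15925060-15925309, minus strand: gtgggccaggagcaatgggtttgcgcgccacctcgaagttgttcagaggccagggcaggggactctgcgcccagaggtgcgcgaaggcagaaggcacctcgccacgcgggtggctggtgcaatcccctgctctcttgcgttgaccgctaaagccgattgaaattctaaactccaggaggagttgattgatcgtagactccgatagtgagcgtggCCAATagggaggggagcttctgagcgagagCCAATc
Psph, chr5:129787254-129787503, minus strand: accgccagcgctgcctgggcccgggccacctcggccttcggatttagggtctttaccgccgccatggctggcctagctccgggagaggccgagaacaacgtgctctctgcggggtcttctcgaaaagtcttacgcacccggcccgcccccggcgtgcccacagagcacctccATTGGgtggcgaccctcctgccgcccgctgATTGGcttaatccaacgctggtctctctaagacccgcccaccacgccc
Mthfd2, chr6:83317605-83317854, minus strand: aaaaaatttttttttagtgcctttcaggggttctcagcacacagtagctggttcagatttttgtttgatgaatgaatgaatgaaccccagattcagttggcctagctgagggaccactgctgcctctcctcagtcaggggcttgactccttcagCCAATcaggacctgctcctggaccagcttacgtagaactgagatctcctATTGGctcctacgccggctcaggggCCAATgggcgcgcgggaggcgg
Shmt2, chr10:127522445-127522694, minus strand: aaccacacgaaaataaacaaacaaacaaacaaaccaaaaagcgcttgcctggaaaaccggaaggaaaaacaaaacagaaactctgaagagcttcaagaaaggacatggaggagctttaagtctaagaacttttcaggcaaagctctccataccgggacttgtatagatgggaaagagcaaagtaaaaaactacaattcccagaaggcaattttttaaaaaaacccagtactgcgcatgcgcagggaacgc
Over windows that also take in the 50 bases after the start (300 bases in all), the pentamer CCAAT was found on either strand 2 times for Phgdh, 2 for Psph, 3 for Mthfd2, 2 for Cbs, 1 for Shmt1 and 3 in one of the Psat1 windows. It was absent from the Shmt2 window and from the other Psat1 window. That makes 6 of 8 windows from 7 members, against 37.4% of the 32851 windows in the table, and the pentamer was looked for after the sequences had been read. The core of the C/EBP-ATF composite element through which ATF4 acts, TGATGNAA on either strand, was in 0 of the 8 windows and in 3.97% of all windows. It can share no more than an end letter with a CCAAT pentamer. No window for Cth was in the table.

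Signal was weaker on the acinar array than on the others. Its 75th-percentile signal was 35.2 intensity units, against 72.2 on the ADM array and 95.7 on the duct array. Of 55664 probes, 22635 were well above background on it, against 27658 and 27841. Levels below are log2 processed signal minus that array's 75th percentile, so 0 is the 75th percentile. A probe that was not well above background has only a bound, written as "at least", in which the lowest well-measured signal of its array (or its own signal, if higher) takes its place. Where a probe was spotted repeatedly, the SD between its spots had a median of 0.106 log2 units on the ADM array, 0.0881 on duct and 0.122 on acinar, an error of spotting and scanning alone. The gap between probes of 1 gene was wider. Such probes read the same RNA on the same arrays. The gap therefore leaves out variation of dissection, amplification and mice, which was not measured. For genes with a second probe well above background, the differences given by the probes lay a median of 0.98 log2 units apart between duct and acinar (1830 genes), 0.78 between ADM and acinar (1901) and 0.93 between ADM and duct (2292). In 1 gene in 4 they lay more than 2.04, 1.60 and 1.90 units apart. Leaving out the scaling between arrays moves every difference: the median gene then stands at 1.34 between duct and acinar, 0.86 between ADM and acinar and −0.45 between ADM and duct, and unscaled values below are to be read against these.

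**Figure D1:**
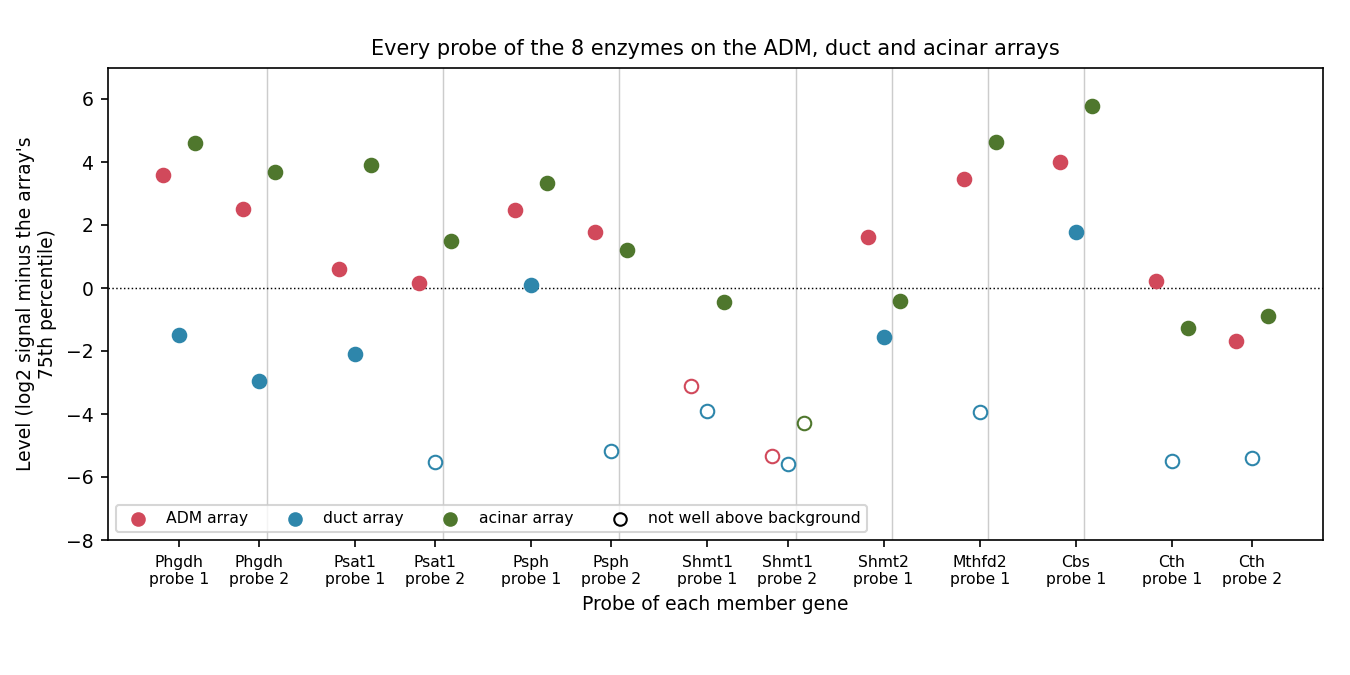
Level of each of the 13 probes on the ADM (red), duct (blue) and acinar (green) arrays, in log2 units relative to the array's 75th percentile. Open points were not well above background. Duct is lowest in all probes other than those of Shmt1, although without scaling between arrays the Shmt2 probe was higher in duct than in acinar. The Shmt1 probes give no order of ADM and duct, and the second gives none at all, since it was not above background on any array.

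Phgdh, the first and committing enzyme of serine synthesis, had a level of 3.60 in ADM, −1.49 in duct and 4.60 in acinar on its brighter probe. Its second probe gave 2.51, −2.95 and 3.69, so both probes placed duct far below the other arrays. Duct was 68.1-fold lower than acinar (difference −6.09, second probe −6.65), and only 73 of 13820 genes lay further down. ADM was 34.0-fold higher than duct (5.09, second probe 5.46), with 69 of 14465 genes higher. ADM and acinar were near each other, at −1.002 and −1.19 on the 2 probes, less than the 1.60 units above. With no scaling between arrays this last difference was 0.03 (877 against 856 intensity units) where the median gene was at 0.86, so its direction depends on the scaling, while Phgdh in duct stayed 4.65 log2 units below acinar.

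Psat1, the aminotransferase of the second step, had levels of 0.59 in ADM, −2.08 in duct and 3.91 in acinar. On the second probe they were 0.16, not well above background, and 1.51. Here ADM lay clearly under acinar as well, 9.96-fold on the first probe (−3.32) and 2.55-fold on the second (−1.35). Duct was 63.7-fold lower than acinar (−5.99, second probe at least 27.5-fold), and ADM was 6.40-fold higher than duct (2.68, second probe at least 10.8-fold). Among the 3 serine synthesis genes, Psat1 alone differed between ADM and acinar by more than the 1.60 units that 3 in 4 genes stay under between their probes, and on 1 of its 2 probes.

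Psph, the phosphatase that completes the route, was at 2.47 in ADM, 0.10 in duct and 3.34 in acinar. Its second probe gave 1.79 in ADM, no signal well above background in duct, and 1.22 in acinar. Duct was lower than acinar by 9.44-fold on the first probe (−3.24) and at least 22.5-fold on the second. ADM was higher than duct by 5.15-fold (2.37) and at least 33.5-fold. Between ADM and acinar the probes pointed in opposite directions, −0.87 and 0.58, both within 2-fold, and no scaling gave 0.16 on the first, so no order can be read for Psph in these 2 cell types.

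Shmt1, the cytosolic serine hydroxymethyltransferase, was well above background on the acinar array only, at −0.44, a signal of 26.0 intensity units. It was at least 7.14-fold lower in duct (−2.84) and at least 6.41-fold lower in ADM (−2.68), and duct and ADM could not be compared. Its second probe was not well above background on any array, so nothing bears on this pattern but 1 dim probe, and the mean of both probes left bounds under 2-fold (−0.91 and −0.79).

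Shmt2, the mitochondrial enzyme of the same reaction, showed another order. Its single probe had 1.61 in ADM, −1.55 in duct and −0.41 in acinar, which made it the member with the largest excess of ADM over acinar, 4.05-fold (2.02). The signal was 221 intensity units in ADM, 32.7 in duct and 26.6 in acinar. In duct and acinar this probe was therefore about as dim as that of Shmt1 in acinar. ADM was also 8.95-fold above duct (3.16). Duct was 2.21-fold lower than acinar (−1.14), the smallest of the duct differences, and this one turned to 0.30 with no scaling between arrays and was within 2-fold with normexp, a model-based background correction (−0.54) and with median scaling (−0.76). The ADM excess over acinar was at least 1.13 under every setting run, and 3.06 with no scaling.

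Mthfd2, the mitochondrial methylenetetrahydrofolate dehydrogenase that takes up the carbon released by Shmt2, was at 3.47 in ADM and 4.62 in acinar and was not well above background in duct. The duct signal was 6.25 intensity units, against 800 in ADM and 868 in acinar. Duct was at least 239-fold lower than acinar (−7.90), with 12 of 13820 genes further down, and ADM was at least 107-fold higher than duct (6.75), with 7 of 14465 genes higher. The size of these bounds depends on the setting. They were −4.21 and 3.61 with normexp, and −6.46 and 6.34 with no scaling. No member had a larger difference in these 2 comparisons. Between ADM and acinar Mthfd2 differed by −1.15 (2.23-fold), and by −0.12 with no scaling, unlike the 2.02 of Shmt2. A gene of the same mitochondrial branch, Mthfd1l, which releases formate from the carbon unit, was well above background in ADM only (1.11), at least 3.15 log2 units above acinar and 4.38 above duct. It was singled out after its values were seen.

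Cbs, the entry enzyme of transsulfuration, had levels of 4.01 in ADM, 1.78 in duct and 5.77 in acinar on its single probe. Acinar was highest and duct lowest, and the duct level was still well above background. Duct was 15.9-fold lower than acinar (−3.99), ADM was 3.40-fold lower than acinar (−1.77) and 4.67-fold higher than duct (2.22). With no scaling ADM and acinar were within 2-fold (−0.73).

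Cth, which completes transsulfuration, was at 0.21 in ADM and −1.25 in acinar on its brighter probe and not well above background in duct. On the second probe it was at −1.70 in ADM and −0.89 in acinar, again with duct not well above background. Both probes put ADM above duct, by at least 11.2-fold (3.49) and at least 2.99-fold (1.58), and duct below acinar, by at least 4.06-fold (−2.02) and at least 5.21-fold (−2.38). For ADM against acinar the probes disagreed, 1.47 on one and −0.80 on the other, a gap of 2.27, and the mean of both was 0.33. The direction of Cth between these 2 cell types is therefore not settled. The bound on the duct difference fell under 2-fold with normexp (−0.90) and with no scaling (−0.58).

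**Figure D2:**
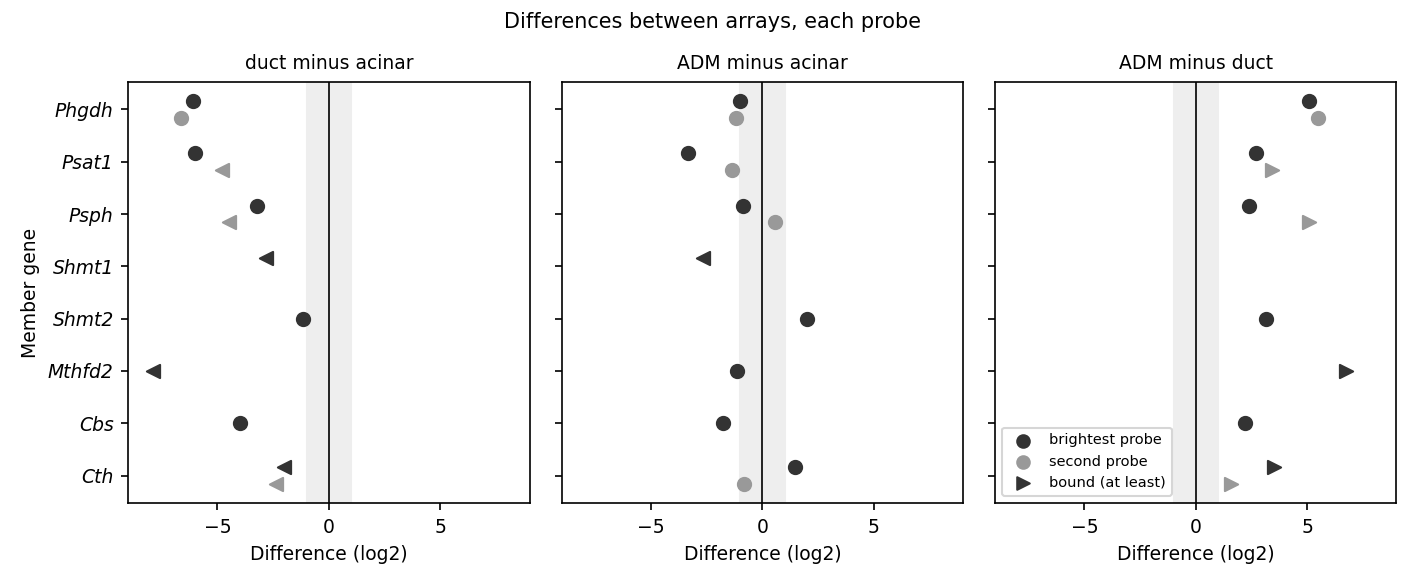
Difference in log2 units for each probe in the 3 comparisons, with the brighter probe in black, the second in grey and bounds as triangles that point away from 0. The grey band spans differences under 2-fold. All points are left of 0 for duct minus acinar (Shmt2 turns to 0.30 without scaling between arrays) and right of 0 for ADM minus duct, whereas Psph and Cth have probes on both sides of 0 for ADM minus acinar.

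Set together, all 8 members were at least 2-fold lower in duct than in acinar cells and 0 were higher, where 24.6% of all 13820 genes compared were at least 2-fold lower and 27.4% higher. Their median difference was −3.61 and that of all genes was 0.00. The members were chosen with earlier results of these data known. Contrasts with all genes, here and below, may therefore not be independent of the data. Of the 8 values, 3 (Shmt1, Mthfd2 and Cth) were bounds, as were 28.4% of those of all genes. Not being well above background in duct, these 3 could only come out lower or at 0. In 6 of the 8 (Phgdh, Psat1, Psph, Shmt1, Mthfd2 and Cbs) the difference was larger than the 2.04 units that 3 in 4 genes stay under between probes. Those of Shmt1 and Mthfd2 were bounds. Of all genes, 11.4% lay below Cth, whose −2.02 fell just short of that gap. In 4 of the 4 members with a second probe that could be compared, it pointed the same way. For Psat1, Psph and Cth that probe gave only a bound, which could not point the other way. Without scaling, and also with normexp background correction, the count was 6: Shmt2 was then within 2-fold, and Cth had only a bound under 2-fold. This stands against 8.46% of all genes lower and 59.0% higher without scaling, and 10.9% and 20.8% with normexp. With median scaling 18.6% of all genes were lower and 34.2% higher, and 7 members were at least 2-fold lower.

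In ADM against duct cells, 7 of the 7 members compared were at least 2-fold higher and 0 were lower, where 21.6% of 14465 genes were higher and 24.8% lower. The median was 3.16, against −0.05 for all genes. Bounds made up 2 of the 7 values (Mthfd2 and Cth) and 20.9% of those of all genes. These 2 could only come out higher or at 0. All 7 exceeded 1.90, the corresponding gap between probes, where 1202 of 14465 genes lay above the smallest of them, Cbs at 2.22. Second probes had the same direction in 4 of 4 genes. For Psat1, Psph and Cth they gave only a bound, which could not point the other way. All 7 also stayed 2-fold higher without scaling, where 15.7% of all genes were higher and 34.0% lower.

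In ADM against acinar cells the members divided. Of 8, 5 were at least 2-fold lower in ADM (Phgdh, Psat1, Shmt1, Mthfd2 and Cbs), 2 were higher (Shmt2 and Cth) and 1 (Psph) was within 2-fold, where 22.0% of 13620 genes were lower and 21.8% higher. The median was −1.08, against 0.00 for all genes. The value of Shmt1 was a bound that could only come out lower or at 0. In 4 members (Psat1, Shmt1, Shmt2 and Cbs) the difference was larger than 1.60, the gap that 3 in 4 genes stay under between probes, and second probes had the same direction in 2 of 4 genes. Of 13620 genes, 1396 lay further down than Cbs (−1.77) and 1228 higher than Shmt2 (2.02). The count of lower members was 2 (Psat1 and Shmt1) without scaling, where 7.85% of all genes were lower and 45.5% higher. It was 2 as well with normexp (Psat1 and Cbs, with Shmt1 at a bound of −0.76), where 6.93% were lower and 12.6% higher, and 3 with median scaling, where 18.0% were lower and 25.9% higher. The excess of Shmt2 and the deficit of Psat1 kept their sign and stayed over 2-fold under every setting that could be run on them. For Shmt2, with 1 probe, averaging probes and changing the filter repeat the same value. A second probe, which disagreed for Psph and Cth, was not there to compare.

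**Figure D3:**
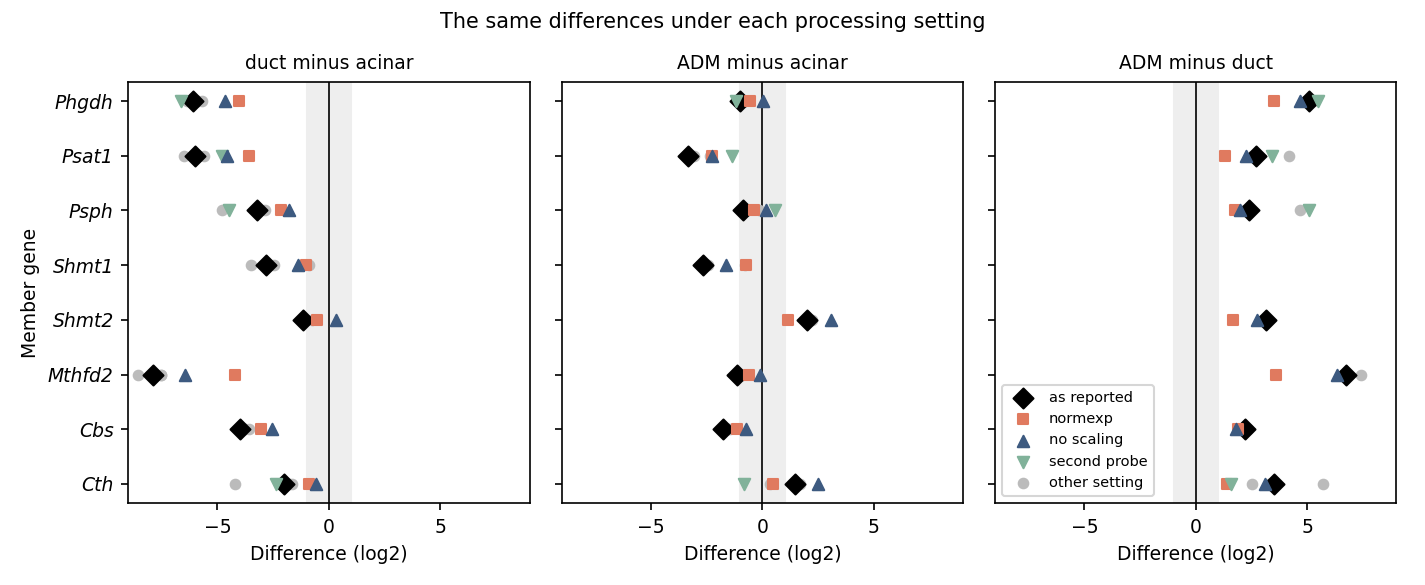
Difference in log2 units for each member in the 3 comparisons under the reported setting (black diamonds), normexp background correction, no scaling between arrays, the second probe, and the other settings in light grey. The grey band spans differences under 2-fold, and bounds are drawn at the bound. The values keep to 1 side of 0 for ADM minus duct, and Phgdh, Psph and Cth reach both sides for ADM minus acinar.

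The arrays also differed in markers of the cells they were cut from, and those values stand beside the members' pattern. Acinar markers were lower in duct than in acinar in 12 of 12 genes (median −5.24), below acinar in ADM in 10 of 12 (−1.83), and above duct in ADM in 11 of 12 (3.52). Summed over the list, their linear level was 7776 in ADM, 1393 in duct and 23004 in acinar, in units of each array's 75th-percentile signal, and none was below background. Ductal markers were higher in duct than in acinar in 10 of 11 (2.04), with summed levels of 86.2, 142 and 23.0, and Cftr was not well above background on any array. The order acinar, ADM, duct of the summed acinar markers was also that of Psat1, Mthfd2 and Cbs, 3 of the 8 members, under every setting that could be run on them. Without scaling, Mthfd2 in ADM was below acinar by only −0.12, where the median gene stood at 0.86. The share of all genes with this order is not given here, so the count of members cannot be called unusual. In Phgdh and Psph the order of ADM and acinar turned with the setting, in Shmt1 ADM and duct could not be compared, and Shmt2 and Cth had ADM highest on their brightest probes. How far the members' pattern follows the content of acinar RNA on each array was not tested, and fewer acinar cells and less RNA per cell cannot be told apart.

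Markers of other cells moved too. ADM exceeded acinar in 9 of 12 macrophage markers (median 1.68) and exceeded duct in 9 of 12 (2.04), with summed levels of 1020, 606 and 1439 in ADM, duct and acinar. These sums rest mostly on Itgam, whose probe was highest in acinar. Without it they were 275, 68.1 and 76.5. Of the fibroblast and stellate markers, 9 of 11 were higher in ADM (2.47) and 9 of 12 higher in duct (1.66) than in acinar, with sums of 338, 333 and 89.8. Endothelial markers were higher than in acinar in 4 of 6 genes in both ADM and duct, and islet markers in 4 of 7 and 2 of 7. The shorter lists had from 1 to 6 genes to compare. Adipocyte markers were lower in duct than in acinar in 3 of 3 genes (median −2.97), and 2 of 4 were higher in ADM than in duct, Fabp4 by 17.0-fold and Lpl by 12.9-fold, with Adipoq and Lep not well above background on any array. The globin gene Hba-a1 was 8.03-fold higher in ADM than acinar and 25.8-fold higher than in duct, while the other 3 red blood cell markers were not well above background on any array. Nerve and Schwann markers were higher in duct than in acinar in 3 of 4. Lymphocyte markers were higher in ADM than in duct in 3 of 6 and neutrophil markers in 2 of 4. The part of these cells in the members' differences was not tested.

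The other genes of these pathways came from lists written from textbook knowledge, with earlier results of these data known. Genes of serine and glycine turnover outside the members were lower in duct than in acinar in 6 of 10 genes compared, with 1 higher (median −3.46), below acinar in ADM in 8 of 11 and above it in 0 (−2.02), and higher in ADM than in duct in 7 of 11 and lower in 2 (1.72). Gatm, which uses glycine for creatine synthesis, had levels of 2.44 in ADM, −3.01 in duct and 4.46 in acinar, a difference of −7.46 for duct against acinar. Gnmt, which methylates glycine, had 2.59, −1.57 and 5.42, and the sarcosine-oxidising Sardh was 11.6-fold lower in ADM than in acinar (−3.54). Gldc, Sds, Agxt and Dmgdh, which break down or convert glycine, serine and dimethylglycine, were not well above background on any array.

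Folate one-carbon genes outside the members were closer to the background. They were lower in duct than in acinar in 6 of 17, with 2 higher (median −0.49, but 0.78 without scaling), below acinar in ADM in 6 of 19 and above it in 2 (−0.05, but 0.63), and higher in ADM than in duct in 6 of 20 and lower in 4 (0.16, but −0.25). Mthfd2l, a relative of Mthfd2 with the same mitochondrial reaction, went against it in duct: its level was 2.16 in duct, −0.60 in ADM and −1.34 in acinar, 11.3-fold higher in duct than in acinar. Ggh, which trims the glutamate tail of folates, was 17.7-fold lower in duct than in acinar (1.37 against 5.51) and was at 3.33 in ADM.

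Genes of cysteine, sulfide and glutathione metabolism showed no common direction. For duct against acinar 7 of 16 were lower and 6 higher (median 0.03, but 1.47 without scaling, where the median gene stood at 1.34). For ADM against acinar 5 of 17 were lower and 3 higher (−0.37, but 0.06 with normexp and 0.67 without scaling). For ADM against duct 6 of 17 were lower and 5 higher (−0.76, and −1.16 without scaling, where the median gene stood at −0.45). Suox, sulfite oxidase, was higher than in acinar in both duct (2.12) and ADM (2.86). Ggt1, which breaks down extracellular glutathione, was lower than in acinar in both (−2.88 and −3.66), and the rhodanese Tst was 11.3-fold lower in ADM than in duct (−3.49). Gclm, a subunit of the first enzyme of glutathione synthesis, was not well above background on any array.

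Transporters of serine, cystine and neutral amino acids were lower in duct than in acinar in 8 of 15, with 3 higher (median −1.15, but 0.29 without scaling), were split 4 lower and 3 higher of 14 in ADM against acinar (0.05), and were higher in ADM than in duct in 9 of 15 and lower in 2 (1.43). Slc7a5, the light chain of the large neutral amino acid exchanger, had 1.22 in ADM, −1.02 in duct and 5.54 in acinar, 94.5-fold lower in duct than in acinar and −4.32 in ADM against acinar. Slc38a3, a glutamine transporter, was 68.2-fold lower in duct than in acinar (−6.09), and Slc38a1, another, was 31.8-fold higher in ADM than in duct (4.99). Slc7a11, the cystine transporter, and Slc6a14 were not well above background on any array.

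Genes of the ATF4 and amino acid response were lower in duct than in acinar in 18 of 24, with 2 higher (median −1.68, but −0.90 with normexp and −0.24 without scaling). They were higher in ADM than in duct in 16 of 24 and lower in 2 (1.59, but 0.91 with normexp and 1.18 without scaling). For ADM against acinar 8 of 24 were lower and 3 higher (−0.58, but 0.45 without scaling). Wars, the tryptophanyl-tRNA synthetase, had 4.24 in ADM, −1.71 in duct and 5.37 in acinar, and the stress protein Nupr1 was 27.8-fold lower in duct than in acinar (−4.80). Atf3 and Sesn2, stress-induced genes, had the largest excess of ADM over acinar in the list, 7.45-fold and 5.69-fold. Asparagine synthetase (Asns), a classic ATF4 target, had 4.49 in ADM, 1.48 in duct and 5.82 in acinar, and Atf4 itself 6.99, 6.44 and 7.94. These 2 were singled out after their values were seen.

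The list of lower glycolysis holds steps before 3-phosphoglycerate and steps after it, such as those of Pgam1, Eno1 and Pkm. Its genes were lower in duct than in acinar in 4 of 8, with 1 higher (median −0.68, but 0.27 with quantile normalization and 0.76 without scaling). They were higher in ADM than in duct in 4 of 8 and lower in 0 (0.91). Between ADM and acinar 7 of 8 were within 2-fold (0.32). Pgk1, which makes 3-phosphoglycerate, had 3.41 in ADM, −0.02 in duct and 2.46 in acinar. Pkm, pyruvate kinase, stood 4.61-fold above acinar in ADM (2.21).

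**Figure D4:**
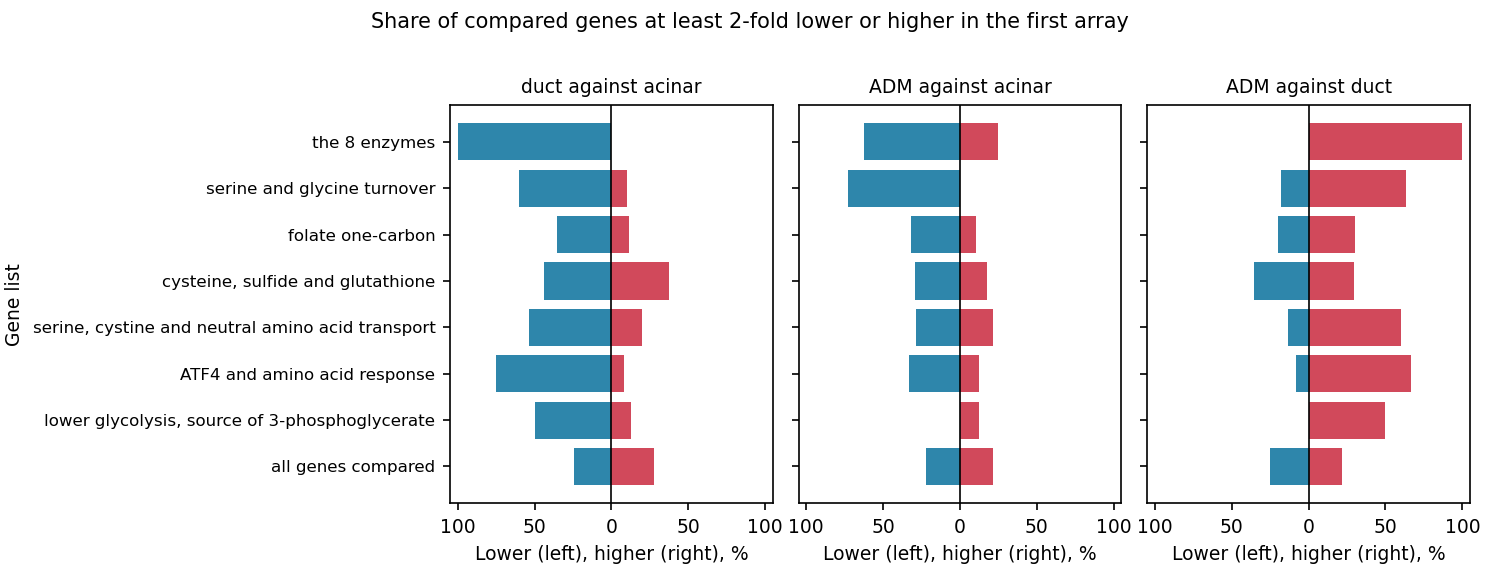
Share, in percent of the genes compared, of each list that was at least 2-fold lower (blue, to the left) or higher (red, to the right) on the first array of each comparison, with the 8 members at the top and all genes compared at the bottom. The members reach 8 of 8 lower for duct against acinar (6 of 8 without scaling between arrays) and 7 of 7 higher for ADM against duct, while the share of all genes is between 21.6% and 27.4% on each side. Bounds, 3 of the 8 and 2 of the 7, could not fall on the other side. The list drawn as the source of 3-phosphoglycerate also holds genes that act after it.

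Across the 9525 genes well above background on all 3 arrays, the genes whose levels on the 3 arrays, centred on their mean, lay nearest to those of Phgdh were Gadd45g (root mean square difference 0.10 log2 units; levels 2.11 in ADM, −2.78 in duct and 3.08 in acinar), Reg3b (0.18; 7.23, 2.49 and 8.65) and Lbh (0.21; −0.60 in duct and 5.42 in acinar). Nearest to Shmt2 were Pdia5 (0.02; 0.72, −2.39 and −1.26), Aspscr1 (0.08; 1.65, −1.45 and −0.18) and Pnpla7 (0.08; 0.61, −2.72 and −1.59). The likeness rests on 3 arrays of 1 sample each, and many genes lie close together on so few values. No such genes are given for Cth, whose duct level was only a bound.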

How the data were processed

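The deposited scanner tables came from Agilent Feature Extraction 11.5.1.1, per the file headers, and their processed signal is a linear intensity, background-subtracted and detrended within each array with no scaling between them. Also taken from the deposited tables were each spot's median intensity, that of its surroundings, and quality flags. The authors' value table holds log2 values and served as an alternative. Each of its columns equals log2 processed signal shifted by a constant (ADM −6.17, duct −6.58, acinar −5.13) to within 0.001 in the 32908, 32913 and 32910 probes compared, so its scale and direction are those of the scanner values and genes were not centred. The medians of its columns were −0.56, −0.63 and −0.57.

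Controls (3671 of 62976 spots) and outlier spots were left out, spots of a probe averaged on the log2 scale, and the 75th percentile over 55664 probes subtracted. Probes were named by RefSeq accession through a table of GRCm38.p6, for names only, since the probes were annotated on mm9; 28020 were named. Promoter sequences are those of RefSeq on GRCm38.p6, found for 7 of 8 members. The probe with the highest mean stood for a gene. Calls are differences of at least 2-fold, where 1 of the 2 arrays or both were well above background; a bound that would cross 0 was put at 0. With 1 array per group there was no test. Named from each of 6 pathway lists were at most 2 genes a direction and comparison, plus all list genes not well above background on any array and genes the text says were chosen after their values were seen. Members and lists were chosen with earlier results of these data known. limma 3.58.1 ran normexp (offset 50) and quantile normalization. Calculations were checked on simulated arrays.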

Additional observations from a re-analysis of the deposited data

How the results depend on the processing

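Reported values were recomputed under 9 other settings and 1 chosen after seeing the data (no scaling between arrays). Of 211 differences of single members under an alternative, 188 kept their direction and their side of 2-fold and 18 came out under 2-fold, some of them as bounds. Psph in ADM against acinar, within 2-fold throughout, changed sign with the second-brightest probe (0.58) and with no scaling (0.16). The other 3 reversed: Cth in ADM against acinar with the second-brightest probe (−0.80), Phgdh in ADM against acinar with no scaling (0.0348) and Shmt2 in duct against acinar with no scaling (0.30). The 188 are not separate checks, since many of the values could not change. The authors' table holds the same signal with nearly the same scaling. Averaging the probes leaves a gene with 1 probe as it was. Removing the filter on dim probes, or requiring detection throughout, repeated any difference that was not a bound and could be compared. A bound could not reverse. No paired analysis was possible because each group has 1 array.

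The count of members lower in duct than in acinar was 8 and became 5 of 5 when each probe had to be well above background throughout and 4 of 4 with the second-brightest probe, where fewer genes could be compared and 25.2% and 29.5% of all genes were lower. The count higher in ADM than in duct was 7 and became 4 of 4 with the second-brightest probe (29.1% of all genes). The count lower in ADM than in acinar was 5 and became 2 with normexp, with no scaling and with the second-brightest probe (24.6% of all genes), and 3 with median scaling, quantile normalization (21.1%) and the filter for probes detected throughout (21.6%). The count higher in ADM than in acinar was 2 and became 1 with normexp, with probes of a gene averaged (20.3% of all genes) and with the filter for probes detected throughout (17.7%), and 0 of 4 with the second-brightest probe (22.9%). Members higher in duct than in acinar, and lower in ADM than in duct, numbered 0 under all of these settings. A member with only a bound in these comparisons could not be called on those sides.

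Normexp gave fewer calls over all genes: 10.9% lower in duct than in acinar, 6.93% lower and 12.6% higher in ADM than in acinar, and 15.0% lower and 10.4% higher in ADM than in duct. With no filter, 41.7% of genes were lower in duct and 37.7% lower in ADM than in acinar. Of 297 medians of lists, 18 changed sign. In 4 of them 1 of the values was at least 2-fold: macrophage markers in ADM against acinar with the second-brightest probe (−0.15, 3 genes) and in duct against acinar with no scaling (0.34), serine and glycine turnover in ADM against duct with the second-brightest probe (−0.17, 4 genes), and transporters in duct against acinar with no scaling (0.29). The other 14 were within 2-fold on both sides, 6 of them with no scaling. The cause of these changes was not tested. With median scaling the median gene stood at 0.28 between duct and acinar, 0.05 between ADM and acinar and −0.20 between ADM and duct. Precision is limited by the number of arrays, and low signals by the dimmer acinar array.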
